A study of Mus musculus with 16 samples.

Results

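The Reg genes of the mouse encode small secreted C-type lectins, and 7 of them were followed here in RNA sequencing of the ileum: Reg1, Reg2, Reg3a, Reg3b, Reg3d, Reg3g and Reg4. They were chosen by symbol, as the rows of the gene count table whose Ensembl identifiers carry those names, and all 7 were among the 21965 genes of the table. Reg3b and Reg3g (RegIIIβ and RegIIIγ) are antibacterial lectins that enterocytes and Paneth cells of the small intestine release into the mucus, where RegIIIγ binds peptidoglycan of Gram-positive bacteria and keeps bacteria away from the epithelium. Their transcription is known to follow microbial signals through MyD88 and the cytokine IL-22, which acts on the epithelium through STAT3. Reg1 and Reg2 are best known from the exocrine pancreas and from regenerating tissue, Reg1 being made also in the upper small intestine, and Reg4 is a product of enteroendocrine and secretory cells that is abundant in the large intestine.

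The study asked how chronic ethanol and endogenous n3 fatty acids alter the intestinal transcriptome. Male C57BL/6 mice were wild type (WT) or carried 1 copy of the fat-1 transgene (named Fat1+/- in the labels), an n3 desaturase of C. elegans expressed in all tissues. They were 8 to 10 weeks old and received a liquid diet for 6 weeks, either without ethanol (pair-fed, PF) or with ethanol raised stepwise to 6% (v/v) for the last 3 weeks (EtOH). The PF groups held 4 WT and 4 fat-1 mice and the EtOH groups 3 WT and 5 fat-1 mice, WT and fat-1 mice being littermates, with 1 library per mouse from tissue labelled as terminal ileum. Wild type littermates were the controls for the transgene and pair-fed mice the controls for ethanol. The library numbers in the labels run through all PF mice before all EtOH mice, so that library order and diet cannot be told apart.

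Each library held between 8422645 and 11438539 counted reads. A few libraries stood apart from the rest in genes that mark gut regions. In fat-1 PF 2 and 4 the ileal bile acid binding protein Fabp6 had 186 and 27 reads, and the bile acid transporter Slc10a2 had 54 and 29. In the other PF and EtOH libraries Fabp6 had 1433 to 56872 reads and Slc10a2 had 4180 to 16018. In fat-1 EtOH 3 and 4 the large intestinal carbonic anhydrase Car1 reached 136041 and 136845 reads and the Paneth cell lysozyme Lyz1 was down to 521 and 474, while WT EtOH 2 combined 38494 reads of Car1 with 36662 of Lyz1. Fabp6 and Slc10a2, which mark the ileum, were thus far lower in fat-1 PF 2 and 4 than in every other library, against their label, and whether the libraries named here came from other gut segments than labelled was not tested. Results on the Reg genes that rest on these libraries are given with and without them. In bulk tissue of this kind fewer cells of a type and less RNA per cell cannot be told apart.

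Of the 7 genes, 6 lie together on chromosome 6 in a cluster and Reg4 lies apart on chromosome 3 (mm10, GENCODE M21 gene spans). In order along the chromosome these are Reg3b (chr6:78370657-78373466, plus strand), Reg3d (chr6:78375874-78378865, minus), Reg3a (chr6:78380709-78383827, plus), Reg2 (chr6:78395623-78408106, plus), Reg1 (chr6:78422711-78428667, plus) and Reg3g (chr6:78466269-78468872, minus). Reg4 occupied chr3:98222156-98236748 on the plus strand. No other annotated gene overlapped any of them. Coding sequences were most alike between Reg1 and Reg2, with 82.6% of aligned bases identical, followed by Reg3a with Reg3b (76.5%), Reg3b with Reg3g (76.4%) and Reg3a with Reg3g (73.9%). All other pairs had 62.8 to 70.3%. Of windows as long as a read (75 bases), 0 of 851 in Reg1, 0 of 751 in Reg3a, 0 of 1076 in Reg3b, 0 of 782 in Reg3d, 0 of 2252 in Reg3g and 0 of 947 in Reg4 occurred in any transcript of another gene, so that exact reads were not shared between these members. In Reg2 40 of 874 windows (4.58%) were also found elsewhere, none in another Reg gene.

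The sequences before the RefSeq starts of 3 of these genes are shown because Reg3b and Reg3g moved together across the libraries while Reg3a, whose start lies closer to Reg3b, moved with them only in part. They are RefSeq sequences (GRCm38.p6), 178 bases ending at the base before the RefSeq start, written 5′ to 3′ on the strand of the gene. The Reg3b start of RefSeq lies downstream of the start of its GENCODE span, so that the Reg3b window falls within that span and 24 of its bases lie in a GENCODE exon. Capitals mark matches, on either strand, to TTCNNNGAA (the STAT dimer motif), NGATAA (GATA factors), TTTATNG (CDX factors) and TATAAA (the TATA box, added after the other searches had been seen).
Reg3b, chr6:78370707-78370884, plus strand: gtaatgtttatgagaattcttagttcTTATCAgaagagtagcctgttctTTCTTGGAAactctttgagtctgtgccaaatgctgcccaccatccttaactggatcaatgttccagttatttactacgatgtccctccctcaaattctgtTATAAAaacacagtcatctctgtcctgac
Reg3g, chr6:78468875-78469052, minus strand: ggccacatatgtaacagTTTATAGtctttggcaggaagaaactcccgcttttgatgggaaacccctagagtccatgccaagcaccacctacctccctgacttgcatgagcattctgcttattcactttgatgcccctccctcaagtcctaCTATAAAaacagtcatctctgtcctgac
Reg3a, chr6:78380531-78380708, plus strand: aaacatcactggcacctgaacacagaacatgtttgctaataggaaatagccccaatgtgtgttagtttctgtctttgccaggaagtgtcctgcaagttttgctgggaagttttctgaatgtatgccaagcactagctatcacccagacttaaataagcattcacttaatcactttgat

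Over the 250 bases before the start, the Reg3b and Reg3g windows shared a run of 20 bases at the start site, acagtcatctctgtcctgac, whereas the longest run in any other pair of the 7 members was 12 bases. Both carried TATAAA, at 29 to 24 bases before the start in Reg3b and at 27 to 22 in Reg3g. In the same windows of all 7 members the STAT motif matched once in Reg3b (129 to 121 bases before the start) and once in Reg3d (238 to 230), and 7.01% of 32817 RefSeq windows of that length held it. The GATA motif matched in Reg1, Reg3b and, at 2 places, in Reg4 (22.5% of windows), the CDX motif at 2 places in Reg3g (9.81%), both overlapping TATAAA there, and TATAAA in Reg1, Reg2, Reg3b and Reg3g (12.4%). Such matches describe the letters of these windows only.

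Reg3b and Reg3g dominated the family, and their transcripts were among the most abundant of the ileum. Reg3b was the most counted gene of all in 11 of the 16 libraries. It ranked 5 in WT PF 3 and fat-1 PF 4, 7 in fat-1 PF 2, and 71 and 31 in fat-1 EtOH 3 and 4. Together the 7 Reg genes took 1.18 to 3.04% of counted reads in WT PF, 0.900 to 2.99% in fat-1 PF, 2.62 to 4.06% in WT EtOH and 0.166 to 3.90% in fat-1 EtOH. The low ends of the fat-1 groups came from fat-1 PF 2 and fat-1 EtOH 3.

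**Figure D1:**
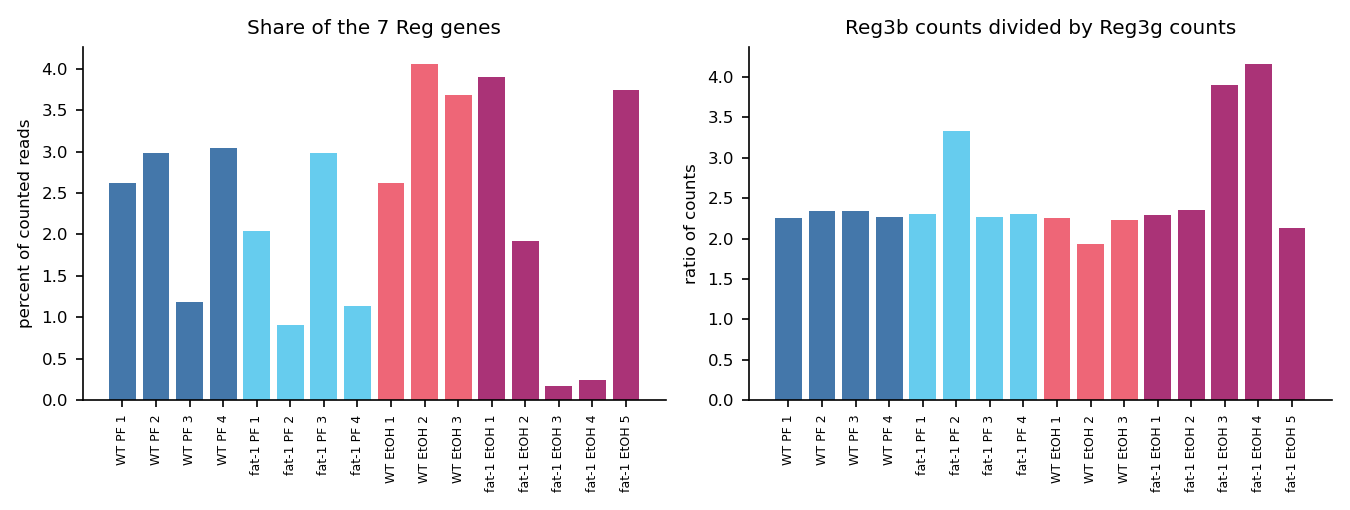
Share of counted reads taken by the 7 Reg genes (left, percent) and the ratio of Reg3b to Reg3g counts (right) in each of the 16 libraries, 1 bar per library colored by group. The share was lowest in fat-1 EtOH 3 and 4, at 0.166 and 0.239%, and the ratio reached 3.33 in fat-1 PF 2 and 3.90 and 4.16 in those 2 libraries.

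Levels of different genes are compared as CPM per kilobase of exon (CPM per kb), where CPM is the count of a gene per 1000000 counted reads, with library totals scaled by edgeR's TMM factors. In WT PF mice Reg3b stood highest at 15760 ± 5610 CPM per kb (SD, n = 4), followed by Reg3g at 3707 ± 1324, Reg3a at 171 ± 45.5, Reg4 at 60.6 ± 16.8, Reg1 at 15.6 ± 15.0 and Reg3d at 1.51 ± 0.354. Each neighbor in that order down to Reg3d had ranges over the 4 mice that did not overlap. Reg2 was at 0 in 3 of the 4 mice, so its place next to Reg3d is not resolved. The gap between the first 2 depended on the length used, because the longest Reg3g transcript is not its protein-coding one. Over the longest protein-coding transcript the means were 22985 and 10164 CPM per kb and the ranges overlapped (11092 to 29596 and 4816 to 12818). In fat-1 PF mice the ranges of Reg1 (7.56 to 642 CPM per kb), Reg3a (127 to 547) and Reg4 (53.8 to 154) overlapped one another. In EtOH mice of both genotypes Reg3a and Reg4 overlapped while Reg1 lay below Reg4 in every library, and in fat-1 EtOH Reg3b (698 to 22724 CPM per kb) and Reg3g (96.8 to 5344) overlapped as well.

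**Figure D2:**
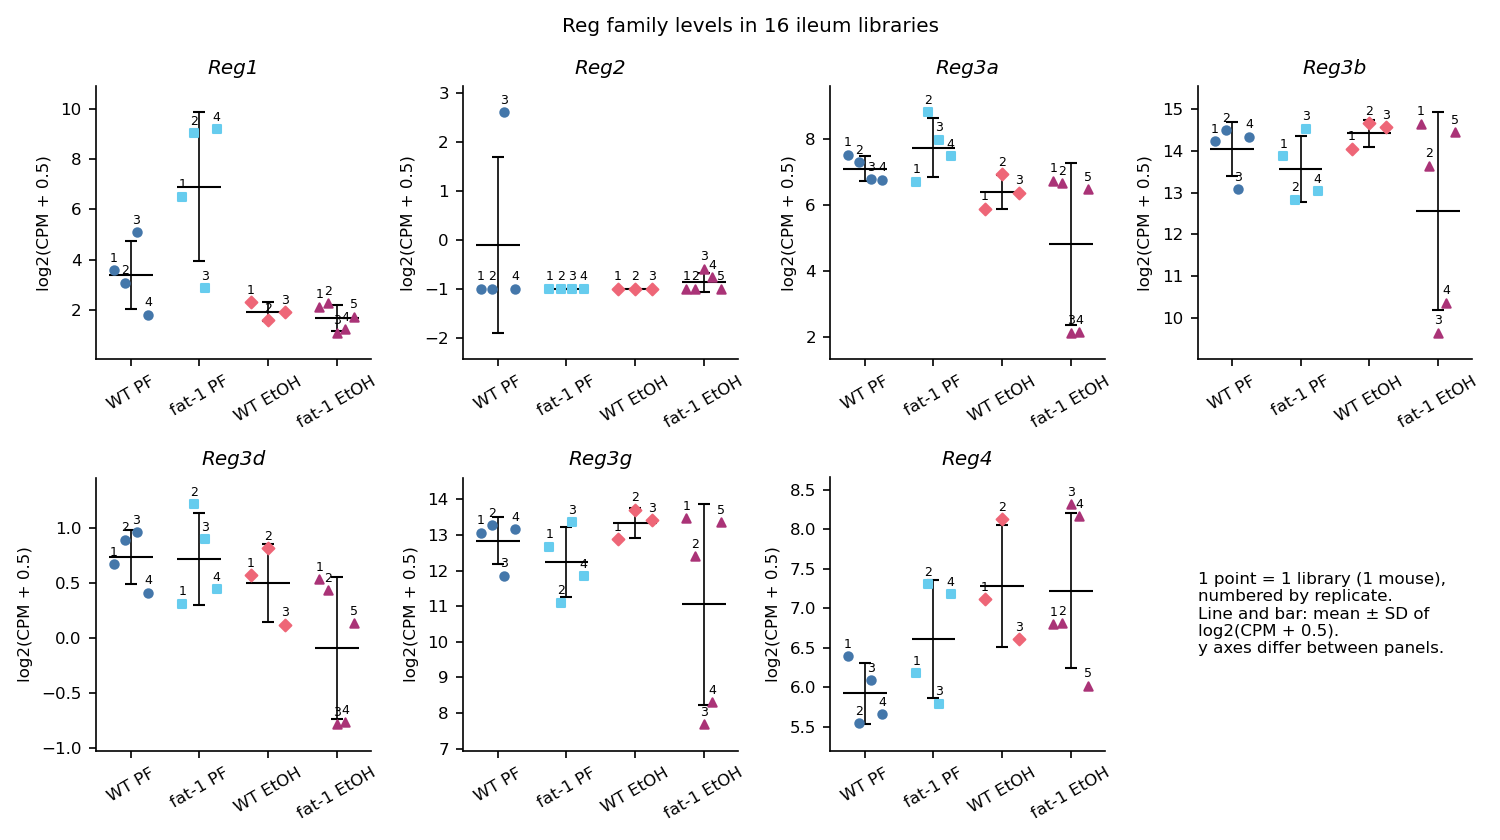
Level of each Reg gene as log2(CPM + 0.5) in the 4 groups, 1 point per library with its replicate number, and the mean and SD of each group as a line and a bar. Reg1 spread from 6.83 to 580 CPM within fat-1 PF, and Reg3a, Reg3b, Reg3d and Reg3g had their 2 lowest libraries in fat-1 EtOH 3 and 4, where Reg4 was highest.

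Reg3b, the antibacterial lectin RegIIIβ, was read at 19331, 23173, 8685 and 20801 CPM in WT PF 1 to 4. In fat-1 PF 1 to 4 it was at 15014, 7311, 23785 and 8452 CPM. In WT EtOH 1 to 3 it was at 17092, 25990 and 24288 CPM, and in fat-1 EtOH 1 to 5 at 25951, 12842, 798, 1318 and 22478. The 4 groups overlapped in every comparison, and fat-1 EtOH 3 and 4 lay below all the other libraries. No contrast of groups passed the test (edgeR's quasi-likelihood test, Benjamini-Hochberg adjusted p over 13811 genes, limit 0.05). The log2 fold change was -0.40 ± 0.82 (SE; adjusted p = 0.889) for fat-1 PF versus WT PF, 0.32 ± 0.88 (adjusted p = 0.898) for WT EtOH versus WT PF and -0.11 ± 0.77 (adjusted p = 0.925) for fat-1 EtOH versus fat-1 PF. The 95% interval of the last, -1.76 to 1.55, left room for a change of either sign, and the value was 0.60 (adjusted p = 0.282) without fat-1 EtOH 3 and 4, -0.60 (adjusted p = 0.670) without fat-1 PF 2 and 4, and 0.0862 (adjusted p = 0.901) without both pairs.

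Reg3g, whose product RegIIIγ binds Gram-positive bacteria, was read at 8588, 9883, 3713 and 9163 CPM in WT PF 1 to 4. In fat-1 PF 1 to 4 it was at 6510, 2194, 10505 and 3678 CPM. In WT EtOH 1 to 3 it was at 7581, 13434 and 10916 CPM, and in fat-1 EtOH 1 to 5 at 11298, 5451, 205, 316 and 10570. The order of libraries was nearly that of Reg3b, again with all groups overlapping. Fold changes on the log2 scale were -0.45 ± 0.93 (SE) for fat-1 PF versus WT PF, 0.44 ± 1.00 for WT EtOH versus WT PF and -0.04 ± 0.88 for fat-1 EtOH versus fat-1 PF, with edgeR adjusted p of 0.890, 0.875 and 0.977. The last was 0.69 without fat-1 EtOH 3 and 4, -0.60 without fat-1 PF 2 and 4, and 0.11 without both pairs. For fat-1 EtOH versus WT EtOH both lectins had negative values that did not pass, -0.82 ± 0.83 for Reg3b (adjusted p = 0.773) and -0.93 ± 0.94 for Reg3g (adjusted p = 0.773). Without fat-1 EtOH 3 and 4 these were -0.15 and -0.24.

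Over the 16 libraries the log2 CPM of Reg3b and Reg3g had a Pearson correlation of 0.998, and each was the gene most like the other among all genes tested. The correlation was 0.997 after subtracting group means and 0.986 over the 14 libraries without fat-1 EtOH 3 and 4. Despite this, the ratio of their counts was not constant. It lay between 1.93 and 2.36 in 13 libraries and was 3.33 in fat-1 PF 2 and 3.90 and 4.16 in fat-1 EtOH 3 and 4, so that in the libraries with the least of both lectins Reg3g was the lower by more. These are values of single libraries and were not tested.

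Marker genes of Paneth cells, which also make Reg3 lectins, moved with Reg3b and Reg3g in part. The 7 Paneth markers summed to 19484 to 26177 CPM in WT PF, 6658 to 23011 in fat-1 PF, 9318 to 18704 in WT EtOH and 118 to 16228 in fat-1 EtOH, with 0 of 7 called in any of the 4 group comparisons. The 2 libraries with the lowest sums, fat-1 EtOH 3 and 4, and the next 2, fat-1 PF 2 and 4, were also low in both lectins, whereas WT PF 3 was low in the lectins at 8685 CPM of Reg3b without a low Paneth sum. The reverse held in WT EtOH 2 and fat-1 EtOH 5, with Paneth sums of 9318 and 9234 CPM beside 25990 and 22478 CPM of Reg3b. Whether the Paneth content of a library had a part in its lectin level was not tested.

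Reg3a and Reg3d, which sit beside Reg3b, were far less abundant. Reg3a was at 185, 159, 110 and 109 CPM in WT PF, and at 104, 451, 253 and 179 in fat-1 PF. In WT EtOH it was at 59.0, 122 and 82.8 CPM, and in fat-1 EtOH at 106, 101, 3.85, 3.93 and 89.2. Of the 8 EtOH libraries 6 lay below the lowest PF library, fat-1 PF 1, with fat-1 EtOH 3 and 4 lowest, and the groups overlapped in each comparison. In fat-1 EtOH versus fat-1 PF the log2 fold change of Reg3a was -2.02 ± 0.79 (SE) and missed the limit in edgeR's test (adjusted p = 0.0565). It passed at a smaller size, -1.29 (adjusted p = 0.0320), once fat-1 EtOH 3 and 4 were left out, where 30.8% of all genes were called. It did not pass without fat-1 PF 2 and 4 (-1.54, adjusted p = 0.262) or without both pairs (-0.84, adjusted p = 0.153). In WT mice the value was -0.68 ± 0.90 (adjusted p = 0.771).

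The levels of Reg3d were barely above the floor of 3 counts. It had 7 to 13 reads in every library of the 4 groups other than fat-1 EtOH 3 and 4, with 1 read each, and its mean level in CPM (± SD) was 1.18 ± 0.277 for the 4 WT PF mice, 1.20 ± 0.498 for the 4 fat-1 PF mice, 0.944 ± 0.338 for the 3 WT EtOH mice and 0.514 ± 0.412 for the 5 fat-1 EtOH mice. Its log2 fold change in fat-1 EtOH versus fat-1 PF, -1.19 ± 0.55 (SE), did not pass (edgeR adjusted p = 0.0980) and was -0.52 without fat-1 EtOH 3 and 4 (adjusted p = 0.320). For fat-1 PF versus WT PF the 95% interval of its log2 fold change ran from -1.20 to 1.21, and for WT EtOH versus WT PF from -1.58 to 0.92.

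Reg1, a lectin of the pancreas and upper small intestine, was the member with the widest range. In WT PF 1 to 4 it was at 11.6, 8.04, 33.8 and 3.01 CPM. In fat-1 PF 1 to 4 it was at 90.5, 522, 6.83 and 580 CPM. In WT EtOH 1 to 3 it was at 4.48, 2.52 and 3.28 CPM, and in fat-1 EtOH 1 to 5 at 3.90, 4.34, 1.64, 1.87 and 2.82. Every fat-1 EtOH library lay below every fat-1 PF library, whereas WT EtOH overlapped WT PF only through WT PF 4. The 2 highest values, in fat-1 PF 2 and 4, belonged to the libraries with few reads of Fabp6 and Slc10a2.

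With ethanol Reg1 fell by 6.68 in fat-1 mice on the log2 scale, a level 103-fold lower (SE 1.03 on the log2 scale, 95% interval -8.89 to -4.47, edgeR adjusted p = 0.0005). It was the only member called in that comparison, 1 of the 6 that passed the filter on low counts, where 37.4% of all genes tested were called, 18.7% higher and 18.8% lower. Groups that did not overlap were also common there, in 24.0% of genes and in 13.4% with the EtOH mice lower, so neither the call nor the separation sets Reg1 apart from the many genes that changed. Without fat-1 PF 2 and 4 the change was -4.06 (adjusted p = 0.0136), and without these and fat-1 EtOH 3 and 4 it was -3.71 (adjusted p = 0.0470). In WT mice Reg1 had a log2 fold change of -2.03 ± 1.11 (adjusted p = 0.419), or -1.12 (adjusted p = 0.741) without WT PF 3, and the difference between the genotypes in their response to ethanol, -4.65 ± 1.44, had an adjusted p of 0.595 in edgeR's test and was under 0.05 only before adjustment. This difference was -2.03 without fat-1 PF 2 and 4 and -1.70 without fat-1 EtOH 3 and 4 as well (adjusted p = 0.848 and 0.863). Averaged over genotypes Reg1 fell by 4.36 ± 0.78 with ethanol (log2, SE, adjusted p = 0.0012), a comparison in which 35.9% of genes were called, 18.3% higher and 17.6% lower. The averaged change of Reg1 was -3.04 (adjusted p = 0.0063) without fat-1 PF 2 and 4 and -2.86 (adjusted p = 0.0156) without both these and fat-1 EtOH 3 and 4.

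Between the pair-fed groups the fat-1 mice had 21.3 times the Reg1 level of WT mice (log2 4.41 ± 1.00, SE), which did not pass over all genes (edgeR adjusted p = 0.187). None of the 13811 genes did in this comparison by edgeR (0.0% called, while 12.7% had an unadjusted p under 0.05). DESeq2's Wald test put Reg1 past the limit (adjusted p = 0.0046), as did edgeR when fat-1 PF 3, the library with 6.83 CPM, was left out (4.81, adjusted p = 0.0247). Without fat-1 PF 2 and 4 the value shrank to 1.78 (adjusted p = 1.0). Between the 2 EtOH groups the log2 difference of Reg1 was within its error (-0.24 ± 1.10, 95% interval -2.60 to 2.11, adjusted p = 0.950).

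Genes that mark the upper small intestine were recorded beside Reg1. The 8 markers, among them lactase (Lct), the fatty acid binding protein Fabp1, the apolipoprotein Apoa4 and the transcription factors Gata4 and Onecut2, summed to 1963 to 14501 CPM in WT PF, 10275 to 50048 in fat-1 PF, 435 to 521 in WT EtOH and 203 to 573 in fat-1 EtOH. In fat-1 EtOH versus fat-1 PF 5 of the 7 tested fell, the named ones, and the iron exporter Slc40a1 rose, a call that was lost without fat-1 EtOH 3 and 4 and also without fat-1 PF 2 and 4, while the count that fell was 5 in both cases. Of all genes 18.8% were called lower and 18.7% higher in this comparison, and 30.8% and 13.9% were called in either direction in the fits without those libraries. Lactase had 753 to 21225 reads in PF libraries and 2 to 27 in EtOH libraries. The sums were highest in fat-1 PF 2 and 4, as Reg1 was, and lowest among PF libraries in WT PF 4, where Reg1 was lowest too. In between the order differed, with sums of 14501 CPM in WT PF 1, 10275 in fat-1 PF 3 and 7719 in WT PF 3 beside Reg1 levels of 11.6, 6.83 and 33.8 CPM. What part the position of a segment along the gut had in the level of Reg1 was not tested.

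**Figure D3:**
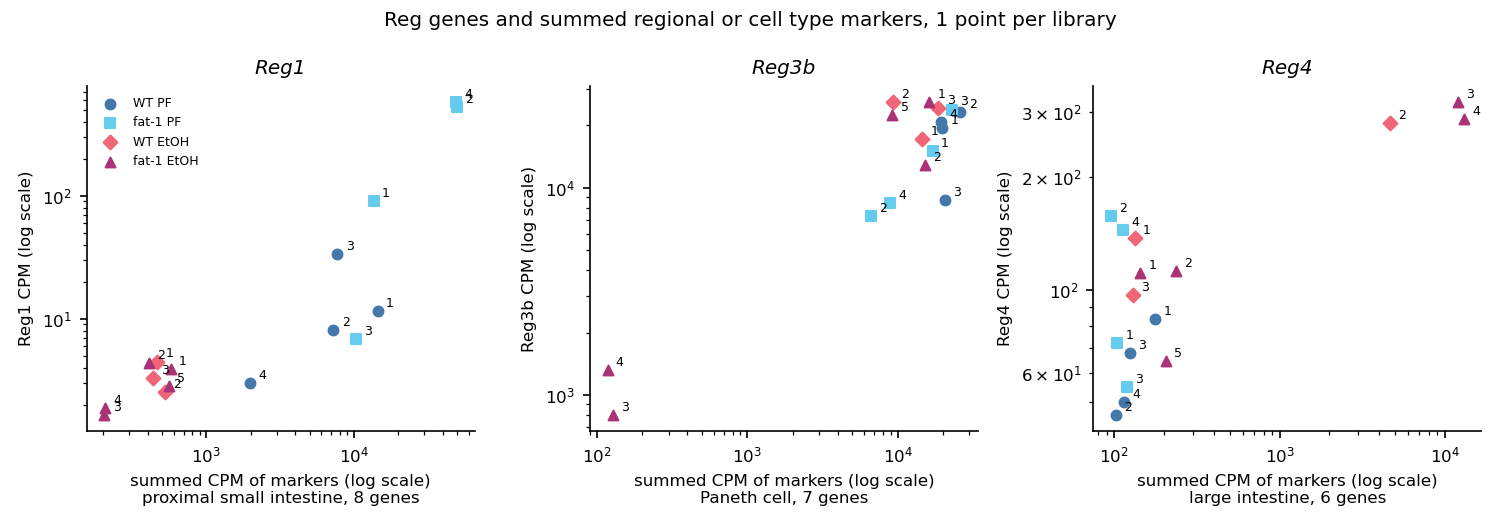
Level of Reg1, Reg3b and Reg4 in CPM (log scale) against the summed CPM (log scale) of 8 upper small intestinal, 7 Paneth cell and 6 large intestinal marker genes, 1 point per library with its replicate number. Reg1 was highest in fat-1 PF 2 and 4, where the upper small intestinal sum was highest. Reg3b was lowest at the 2 lowest Paneth sums, and Reg4 was highest in the 3 libraries with large intestinal sums of 4629 CPM or more.

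Reg2, the closest relative of Reg1 and a product of the exocrine pancreas, was found in 3 libraries only. WT PF 3 had 50 reads (5.55 CPM), fat-1 EtOH 3 had 2 reads and fat-1 EtOH 4 had 1. The other 13 libraries had 0 reads, which allows up to 0.252 to 0.421 CPM per library at 3 counts (counting error only). Reg2 did not pass the filter. With reads in only 1 library of the WT PF, fat-1 PF and WT EtOH mice, relabelling these mice carries no information, and no test is given.

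The same 3 libraries held reads of pancreatic acinar enzymes. Over 9 such enzymes that were near 0 in the other libraries, a set chosen after their values were seen, WT PF 3 had 289 reads, fat-1 EtOH 3 had 95 and fat-1 EtOH 4 had 23, all others 0 to 10. Chymotrypsinogen (Ctrb1) alone had 133, 31 and 7 reads in these 3 libraries. Of the islet hormones Ins1 had 0 reads everywhere and Ins2 had 1, in WT PF 3. The full list of 16 acinar genes includes some with ileal reads of their own, and it summed to 78.6 to 137 CPM in WT PF, 71.6 to 105 in fat-1 PF, 58.5 to 94.8 in WT EtOH and 49.8 to 77.1 in fat-1 EtOH, with 0 of the 4 tested called. By that full list WT PF 3 was the highest library at 137 CPM, but fat-1 EtOH 3 and 4 were not raised, at 74.3 and 60.0 CPM, and the colipase Clps was lowest there, at 15.1 and 12.8 CPM against 40.3 to 96.7 in the other libraries. Cela1, of the same list, went the other way in fat-1 EtOH 3 and 4. It was highest there, at 47.1 and 42.5 CPM against 5.04 to 15.6 in the other libraries. Reg1 reached 33.8 CPM in WT PF 3, the highest WT PF value. The part of pancreatic RNA in these reads was not tested.

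Reg4, a lectin of enteroendocrine and secretory cells, was at 83.5, 46.2, 67.6 and 50.2 CPM in WT PF 1 to 4. In fat-1 PF 1 to 4 it was at 72.0, 158, 54.9 and 145 CPM. In WT EtOH 1 to 3 it was at 138, 279 and 97.0 CPM, and in fat-1 EtOH 1 to 5 at 111, 112, 319, 286 and 64.4. All WT EtOH mice were above all WT PF mice, as was the case for 12.2% of genes (24.3% did not overlap in either direction), while the fat-1 groups overlapped. The highest values came from WT EtOH 2 and fat-1 EtOH 3 and 4, the libraries rich in Car1.

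Averaged over the genotypes Reg4 rose with ethanol 2.15-fold (log2 1.10 ± 0.36, SE, 95% interval 0.33 to 1.88, edgeR adjusted p = 0.0290). The call was lost without fat-1 EtOH 3 and 4 (0.68, adjusted p = 0.0918), without WT EtOH 2 (0.83, adjusted p = 0.0975), and without all 3 (0.40, adjusted p = 0.271). It was also lost without WT PF 2 (1.05, adjusted p = 0.0570) or WT PF 4 (1.06, adjusted p = 0.0501) and in limma's voom fit with sample weights (0.67, adjusted p = 0.0721). It was kept without fat-1 PF 2 and 4 (1.48, adjusted p = 0.0227) and without these and fat-1 EtOH 3 and 4 (1.04, adjusted p = 0.0235). Within WT mice the value was 1.47 ± 0.54 (adjusted p = 0.250), a comparison in which 0.0796% of genes were called and 14.1% had an unadjusted p under 0.05. It was 0.92 without WT EtOH 2, not past the limit, and it passed with voom (1.16, adjusted p = 0.0287), which called 20.3% of genes, and without fat-1 PF 2 and 4 and fat-1 EtOH 3 and 4 (1.48, adjusted p = 0.0431), where 5.68% were called. Within fat-1 mice it was 0.74 ± 0.48 (adjusted p = 0.240), at -0.13 (adjusted p = 0.840) without fat-1 EtOH 3 and 4, 1.49 (adjusted p = 0.113) without fat-1 PF 2 and 4, and 0.61 (adjusted p = 0.352) without both pairs. Between the pair-fed groups Reg4 did not pass (log2 0.79 ± 0.51 for fat-1 versus WT, adjusted p = 0.553), and without fat-1 PF 2 and 4 the value was 0.0289 (adjusted p = 1.0).

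Large intestinal markers and goblet cell markers were recorded beside Reg4, since the gene is known from those places. The 6 large intestinal genes summed to 102 to 177 CPM in WT PF, 95.3 to 120 in fat-1 PF, 130 to 4629 in WT EtOH and 143 to 12977 in fat-1 EtOH, and Fxyd4 among them had no reads. All 4 of those tested rose in fat-1 EtOH versus fat-1 PF. The 9 goblet cell genes summed to 11714 to 14214 CPM in WT PF, 10715 to 15915 in fat-1 PF, 14953 to 15713 in WT EtOH and 11959 to 18925 in fat-1 EtOH. In fat-1 mice 5 of 9 rose with ethanol, among them the mucin Muc2 (log2 2.04 ± 0.52) and its regulator Spdef (1.76 ± 0.54), and Zg16 fell, in a comparison in which 37.4% of all genes were called. Without fat-1 EtOH 3 and 4 the goblet counts were 2 higher and 1 lower of 9, with Muc2 at 0.65 (adjusted p = 0.0325) and Spdef at 0.25 (adjusted p = 0.201). Without fat-1 PF 2 and 4 the counts were 0 and 0, with Muc2 at 1.82 (adjusted p = 0.0948) and Spdef at 1.55 (adjusted p = 0.162). The 11 enteroendocrine genes summed to 392 to 473 CPM in WT PF, 408 to 581 in fat-1 PF, 381 to 463 in WT EtOH and 331 to 817 in fat-1 EtOH, with 817 and 797 CPM in fat-1 EtOH 3 and 4, where the granins Chga and Chgb had their highest counts. They showed no common direction in fat-1 EtOH versus fat-1 PF, with Gcg higher (0.96 ± 0.19) and Cck (-3.29 ± 0.47) and Neurog3 (-1.26 ± 0.31) lower. Of all genes 37.4% were called there. Without fat-1 EtOH 3 and 4 Chga was called too, with 1 higher and 3 lower of 11 (30.8% of all genes called). Without fat-1 PF 2 and 4 only Cck and Gcg were called (13.9% called). Without both pairs 0 were higher and 2 lower, Cck and Chga (12.1% called). Genes of smooth muscle, stroma and leukocytes (Myh11, Acta2, Des, Vim and Ptprc) moved with ethanol too. Their sum was 762 to 1026 CPM in WT PF, 697 to 912 in fat-1 PF, 1364 to 1769 in WT EtOH and 1458 to 2488 in fat-1 EtOH, highest in fat-1 EtOH 3 and 4. Averaged over genotypes 4 of these 5 rose, as did 18.3% of all genes, the muscle myosin Myh11 most (log2 1.28 ± 0.16), while the leukocyte marker Ptprc did not pass (0.47 ± 0.49, adjusted p = 0.473) and reached 273 CPM in fat-1 EtOH 5 against 10.6 to 62.6 in the other libraries. Within fat-1 mice 4 of 5 rose as well (37.4% of all genes called), 5 without fat-1 EtOH 3 and 4 (30.8% called) and 3 without fat-1 PF 2 and 4 (13.9% called). The part of these gut regions and cell types in the level of Reg4 was not tested.

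**Figure D4:**
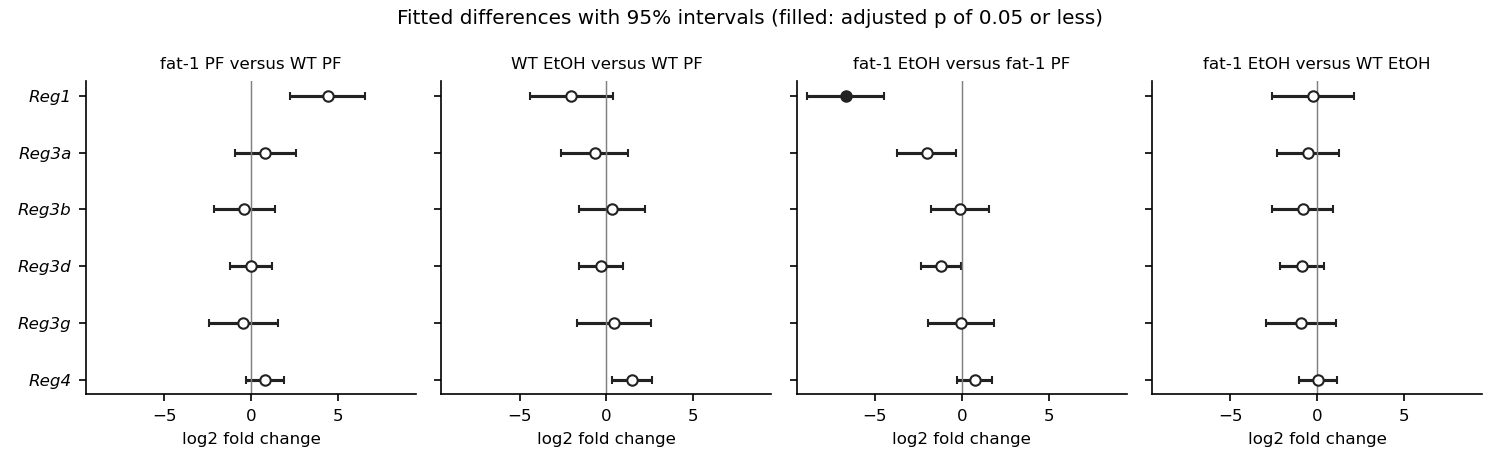
Log2 fold change of the 6 Reg genes that passed the filter in the 4 comparisons of groups, with 95% intervals from edgeR's fit. A filled point has an adjusted p of 0.05 or less over 13811 genes, which only Reg1 in fat-1 EtOH versus fat-1 PF has, at -6.68.

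Across the family, then, 0 of 6 members were called by edgeR in fat-1 PF versus WT PF, 0 of 6 in WT EtOH versus WT PF, 1 of 6 in fat-1 EtOH versus fat-1 PF, and 0 of 6 in fat-1 EtOH versus WT EtOH, where 0.00724% of genes were called. At an unadjusted p under 0.05 the counts were 1, 1, 3 and 0 of 6, where 12.7%, 14.1%, 47.9% and 4.86% of all genes passed that limit. Groups that did not overlap were found for 0, 1, 1 and 0 members, against 6.87%, 24.3%, 24.0% and 2.45% of genes. DESeq2 called 1 of 5, 0 of 5, 2 of 6 and 0 of 6 members with an adjusted p (Reg3d had none in the first 2 comparisons), where it called 2.56%, 2.11%, 40.3% and 0.0363% of the genes it gave an adjusted p. Averaged over genotypes 2 of 6 members were called, Reg1 lower and Reg4 higher, beside 35.9% of all genes, and 3 had an unadjusted p under 0.05, as did 46.9% of genes. The interaction of genotype and diet gave 0 of 6, with 1 at an unadjusted p under 0.05, against 0.0% and 8.26% of genes. The median log2 fold change of the 6 members was 0.40, -0.01, -0.65 and -0.68 in the 4 comparisons of groups, against 0.02, 0.01, 0.05 and 0.04 over all genes tested. These medians include the libraries that stood apart. Values without them follow in the order Reg1, Reg3a, Reg3b, Reg3d, Reg3g and Reg4. Without fat-1 PF 2 and 4 they were 1.78, 0.33, 0.10, -0.19, 0.11 and 0.03 in fat-1 PF versus WT PF. Without fat-1 EtOH 3 and 4 they were -6.30, -1.29, 0.60, -0.52, 0.69 and -0.13 in fat-1 EtOH versus fat-1 PF. In that fit fat-1 EtOH versus WT EtOH had 0.09, 0.16, -0.15, -0.23, -0.24 and -0.85. The comparisons share groups, so that for example the fat-1 PF libraries enter both of the comparisons in which Reg1 had its largest values.

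Ligands, receptors, transducers and other targets of the IL-22 and STAT3 axis were counted as a list of 23, of which 18 passed the filter. IL-22 itself (Il22) had 0 to 7 reads per library. Its receptor chain Il22ra1 was at 76.9 to 87.6 CPM in WT PF, 36.8 to 69.6 in fat-1 PF, 55.0 to 75.9 in WT EtOH and 24.8 to 83.0 in fat-1 EtOH, with fat-1 EtOH 3 and 4 lowest, and passed the test in no comparison (log2 -0.03 ± 0.31 in fat-1 EtOH versus fat-1 PF, adjusted p = 0.947). The transducer Stat3 did not pass either (-0.31 ± 0.18, adjusted p = 0.182). In fat-1 mice 5 of the 18 rose and 2 fell with ethanol, a count close to that of genes at large, of which 37.4% were called. The fucosyltransferase Fut2 rose by 3.70 ± 0.96 on the log2 scale (adjusted p = 0.0090), the mucosal scavenger receptor Dmbt1 by 1.68 ± 0.47 (adjusted p = 0.0130) and the IL-6 receptor Il6ra by 1.14 ± 0.37 (adjusted p = 0.0253), while the feedback inhibitor Socs3 fell by 1.61 ± 0.53 (adjusted p = 0.0277). The other 3 called were the receptor chains Il10rb and Il6st and the secreted IL-22 binding protein Il22ra2.

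Without fat-1 EtOH 3 and 4 the list had 4 higher and 1 lower of 18, while 30.8% of all genes were called. Il6ra was still called there (1.47, adjusted p = 0.0092), and Fut2 (1.92, adjusted p = 0.0823), Dmbt1 (0.66, adjusted p = 0.116) and Socs3 (-1.11, adjusted p = 0.129) were not. Without fat-1 PF 2 and 4 the list had 1 higher and 1 lower, while 13.9% of all genes were called. By edgeR's test Il6ra (1.14, adjusted p = 0.130) and Fut2 (2.83, adjusted p = 0.0967) were not called there. Nor were Dmbt1 (1.47, adjusted p = 0.127) and Socs3 (-1.72, adjusted p = 0.0893). Il6ra was not called without both pairs either (1.45, adjusted p = 0.0635). In the other comparisons of groups 0 of 18 were called. The smallest p belonged to the siderophore-binding Lcn2 in fat-1 PF versus WT PF (-1.56 ± 0.49, adjusted p = 0.200) and in WT EtOH versus WT PF (-1.52 ± 0.53, adjusted p = 0.235), and to Socs3 in fat-1 EtOH versus WT EtOH (-1.42 ± 0.56, adjusted p = 0.757). The next were Il10rb, the shared chain of the IL-22 receptor (0.40 ± 0.16, adjusted p = 0.300, and -0.49 ± 0.17, adjusted p = 0.236), and Stat3 (-0.33 ± 0.19, adjusted p = 0.757). Socs3 was at 0.10 ± 0.55 in fat-1 PF versus WT PF and at -0.10 ± 0.60 in WT EtOH versus WT PF.

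Extl3, the glycosyltransferase reported as a receptor for Reg proteins on epithelial cells, was evenly expressed at 23.3 to 44.4 CPM over all libraries. It rose slightly with ethanol in fat-1 mice (log2 0.49 ± 0.14, adjusted p = 0.0151), a call that was lost without fat-1 EtOH 3 and 4 (0.36, adjusted p = 0.0752) or without fat-1 PF 2 and 4 (0.45, adjusted p = 0.110). Of 12 microbe sensing genes 6 rose and 1 fell in fat-1 EtOH versus fat-1 PF, where 18.7% of all genes were called higher and 18.8% lower, the largest being the flagellin receptor Tlr5 (3.67 ± 0.77), Tlr2 (3.27 ± 0.93), the endotoxin receptor Tlr4 (2.36 ± 0.58) and Tlr1 (2.06 ± 0.37), while the adaptor Myd88, named after its value was seen, was at -0.03 ± 0.14 (adjusted p = 0.868). The counts were 5 and 1 without fat-1 EtOH 3 and 4 (30.8% of all genes called), where Tlr2 was no longer called (0.64, adjusted p = 0.303), and 3 and 0 without fat-1 PF 2 and 4 (13.9% called). In the latter fit Tlr2 (2.82, adjusted p = 0.138) and Tlr4 (1.93, adjusted p = 0.0836) were not called by edgeR. Without both pairs only Tlr5 was called (2.23, adjusted p = 0.0250), with Tlr1 at 1.20 (adjusted p = 0.0549), where 12.1% of all genes were called. None of the 12 was called in the other 3 comparisons of groups. The smallest p belonged to the double-stranded RNA receptor Tlr3 (-0.09 ± 0.09, adjusted p = 0.729) and Tlr1 (-0.37 ± 0.39, adjusted p = 0.758) in fat-1 PF versus WT PF. In WT EtOH versus WT PF the same 2 receptors were at 0.40 ± 0.10 (adjusted p = 0.135) and 1.01 ± 0.40 (adjusted p = 0.283). For fat-1 EtOH versus WT EtOH they were Tlr5 (1.85 ± 0.72) and Nod2 (1.24 ± 0.51), both with an adjusted p of 0.757. Extl3 itself was at -0.28 ± 0.15, 0.02 ± 0.16 and 0.19 ± 0.15 in these 3 comparisons, none past the limit.

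Among 9 other antimicrobial genes, 2 rose and 1 fell in fat-1 EtOH versus fat-1 PF, no larger a share than the 37.4% of all genes called. The goblet cell product Retnlb, which acts on bacterial membranes, rose by 6.98 ± 1.47 on the log2 scale and Lypd8, which binds flagella, by 0.98 ± 0.28, whereas Zg16, a lectin for Gram-positive bacteria, fell by 0.58 ± 0.16. Without fat-1 EtOH 3 and 4 the counts were 1 and 1, with Retnlb at 4.31 (adjusted p = 0.0097) and Zg16 at -0.51 (adjusted p = 0.0377) still called and Lypd8 at 0.50 (adjusted p = 0.0611) no longer. Without fat-1 PF 2 and 4 they were 0 and 0, with Retnlb at 6.06 (adjusted p = 0.0549), Lypd8 at 0.93 (adjusted p = 0.110) and Zg16 at -0.63 (adjusted p = 0.0586). The other comparisons of groups had 0 of 9, with Retnlb at 4.17 ± 1.23 in WT EtOH versus WT PF (adjusted p = 0.188) and Zg16 at -0.31 ± 0.19 (adjusted p = 0.460). In fat-1 PF versus WT PF the peptidoglycan binding Pglyrp1 was at -0.67 ± 0.34 (adjusted p = 0.436) and Zg16 at 0.25 ± 0.17 (adjusted p = 0.580). First in fat-1 EtOH versus WT EtOH were the Paneth cell products Mmp7 (-0.86 ± 0.90) and Ang4 (-0.88 ± 0.94), with adjusted p of 0.776 and 0.780.

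The genes whose log2 CPM followed each member most closely over the 16 libraries are given as a description, since all points share the same libraries, some of which stood apart in gut region markers. Reg1 was followed by Sult6b2 (Pearson 0.980), Crat (0.974) and Cyb5b (0.957), and these values were 0.941, 0.928 and 0.923 after subtracting group means. Reg3a was followed by Cyp3a25 (0.981), Cst6 (0.979) and Exoc3l4 (0.976), which dropped to 0.897, 0.846 and 0.817 without fat-1 EtOH 3 and 4. After Reg3g, the genes most like Reg3b were Dab1 (0.955) and the Paneth cell protease Mmp7 (0.953), at 0.704 and 0.648 without those 2 libraries. Reg3g was next most like Ptpn22 (0.960) and C2 (0.956), at 0.805 and 0.836 without them. For Reg3d the nearest were Cdipt (0.971), Tango2 (0.955) and Aplp1 (0.955), at 0.859, 0.825 and 0.774 without fat-1 EtOH 3 and 4. Reg4 was followed by Slc20a1 (0.929), Plscr4 (0.909) and Ces1g (0.881), with 0.924, 0.842 and 0.798 without fat-1 EtOH 3 and 4.

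Members of the family other than Reg3b and Reg3g followed one another less evenly. Reg3a and Reg3d had a Pearson correlation of 0.939 over the 16 libraries and 0.684 without fat-1 EtOH 3 and 4. Reg3a and Reg3b had 0.790 over all libraries and -0.386 without those 2. Reg1 and Reg3b stood at 0.01 over all libraries and at -0.839 over the 14. Reg4 and Reg3b had -0.660 over all libraries and -0.216 over the 14. The values of these pairs thus changed with the 2 libraries that held the most Car1, and those of Reg3a with Reg3b and of Reg1 with Reg3b changed sign.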

How the data were processed

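RNA of tissue labelled as terminal ileum from each of 16 mice was sequenced in paired reads of 75 bases after poly(A) selection with a stranded kit. Per the study's methods the authors aligned reads with TopHat2 to mm10, guided by Ensembl gene models, and tested with Cuffdiff2. The labels also list Cufflinks, bcl2fastq and FastQC 0.10.1. The deposited table holds raw gene counts made by the authors with HTSeq, and the strand setting is not given in the sources used here. 1 mouse gave 1 library, so that replicates are mice.

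Gene symbols, lengths and positions came from GENCODE M21 by Ensembl identifier, and 26 of 21965 genes were absent from it. The fat-1 transgene itself was not analysed here. Counts were tested in edgeR 4.0.16 (R 4.3.3, limma 3.58.1) with TMM scaling, filterByExpr and robust quasi-likelihood fits, 1 mean per group and all 16 libraries sharing the estimate of spread. Each of 6 contrasts was adjusted by the Benjamini-Hochberg method over 13811 genes and called at 0.05 or less, and 95% intervals came from the same fit. Reg2, below the filter, was to have an exact permutation test (scipy 1.17.1), which is void with reads in 1 library of the groups compared and is not reported. CPM are counts over the TMM-scaled library, and levels are per kb of all exons of a gene. A count of 0 was read as up to 3 counts. The script was tested on simulated data. Libraries held 8422645 to 11438539 counted reads.

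The members and gene lists were chosen with earlier results of these data known. For each member the 3 genes of highest Pearson correlation are named. In each list genes are named by size of change among those called, or by smallest p where none was called. Marker lists served to describe the libraries. Alternatives were DESeq2 1.42.0, voom with sample weights, other scalings, filters and gene lengths, the compared groups alone, the replicate number as a block, each mouse left out, and sets of libraries left out. Of these, the fits without fat-1 PF 2 and 4, the coding transcript length and the TATA box search were added after the data had been seen.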

Additional observations from a re-analysis of the deposited data

Results flagged for a closer look

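Of 35 groups of 4 or 5 mice whose highest and lowest library were compared with the rest, 1 had a library far from the others. The groups covered the Reg genes and also Il22, Il22ra1, Stat3, Socs3 and Extl3. Chance gives about 1 in 20 groups for normally spread values, a rate that does not hold for a gene mostly at 0. In the WT PF mice Reg2 was at 5.55 CPM in replicate 3 and at 0 in the other 3 mice, which the rule flags whatever the size of the value. The same library held 289 reads of the 9 acinar enzymes named after their values were seen, and its part in the Reg2 reads was not tested.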

How the results depend on the processing

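Of 989 alternative values of the members' log2 fold changes, 900 kept their sign and their side of the limit, 6 lost a call, 13 gained one and 70 changed sign, 22 of these with 1 mouse left out. The cause of these changes was not tested. The number of members called in fat-1 PF versus WT PF went from 0 to 1 in DESeq2 (0 to 1 with 1 mouse left out, the 1 being without fat-1 PF 3). In WT EtOH versus WT PF it was 1, Reg4, with voom and without fat-1 PF 2 and 4 and fat-1 EtOH 3 and 4, against 0. In fat-1 EtOH versus fat-1 PF it went from 1 to 2, with Reg3a as the second, in DESeq2, with the replicate block, without fat-1 EtOH 3 and 4, and without these and WT EtOH 2 (1 to 2 with 1 mouse left out, the 2 being without fat-1 PF 1). Averaged over genotypes it was 1 to 2 with 1 mouse left out and 3 without both pairs of fat-1 libraries, where Reg3a joined Reg1 and Reg4 (-0.76, adjusted p = 0.0469). In the same comparison Reg3a took the place of Reg4 beside Reg1 with voom (-1.38, adjusted p = 0.0335), without fat-1 EtOH 3 and 4 (-0.98, adjusted p = 0.0193) and also without WT EtOH 2 (-1.14, adjusted p = 0.0150). Same-numbered mice did not deviate together (mean correlation -0.02 over 21 pairs), so the block carries no pairing. It put Reg3a at -2.73 (adjusted p = 0.0481) in fat-1 EtOH versus fat-1 PF.

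Values that changed sign were small or rested on the libraries that stood apart. In fat-1 PF versus WT PF, Reg3b was 0.0996 and 0.0948 and Reg3g 0.11 and 0.10 without fat-1 PF 2 and 4, and without these and fat-1 EtOH 3 and 4. Reg3d, at 0.0036, was -0.0064 with DESeq2 size factors, -0.0587 with upper-quartile scaling, -0.0110 with a looser filter, -0.0041 in DESeq2, -0.12 with voom, -0.0289 in the compared groups alone, -0.0242 with the block, -0.0326 without fat-1 EtOH 3 and 4 and also without WT EtOH 2, -0.19 without fat-1 PF 2 and 4, -0.20 without both pairs, and -0.28 to 0.18 with 1 mouse left out. In fat-1 EtOH versus fat-1 PF, Reg3b was 0.0221 with upper-quartile scaling, 0.19 with voom, 0.60 without fat-1 EtOH 3 and 4 and also without WT EtOH 2, 0.0862 without both pairs, and -0.53 to 0.32 with 1 mouse left out. Reg3g was 0.0863, 0.22, 0.69, 0.69, 0.11 and -0.46 to 0.45 in the same settings, and 0.0067 with a stricter filter. Reg4 was -0.13 without fat-1 EtOH 3 and 4, with or without WT EtOH 2. In fat-1 EtOH versus WT EtOH and without fat-1 EtOH 3 and 4, Reg1 was 0.0902, Reg3a 0.16 and Reg4 -0.85, and without both pairs they were 0.0885, 0.16 and -0.85. Without fat-1 EtOH 3 and 4 and WT EtOH 2, Reg3a was 0.48, Reg3d 0.0224 and Reg4 -0.30. Reg4 was -0.25 with voom and -0.26 to 0.60 with 1 mouse left out. Averaged over genotypes, Reg3b was -0.40 with the block, -0.14 without fat-1 PF 2 and 4 and -0.10 to 0.32 with 1 mouse left out, and Reg3g was -0.39, -0.0766 and -0.0028 to 0.45. In the interaction, Reg3b was 0.28 without fat-1 EtOH 3 and 4 and 0.40 also without WT EtOH 2, Reg3g 0.24 and 0.45, Reg3d 0.0550 in the latter, and Reg4 0.0129 without fat-1 PF 2 and 4. Depth limits Reg2 and Reg3d, which had at most 50 and 13 reads per library.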
